A study of Homo sapiens with 6 samples.

Results

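The guanylate-binding protein (GBP) genes form a family of large GTPases. Of the 6 genes GBP1 to GBP6, 5 could be followed in H226 cells, a human lung squamous carcinoma line carrying a doxycycline-inducible shRNA against the transcription factor p63. The genes were chosen by family name, and each needed a probe set whose annotation names that gene alone. Where there were several such probe sets, the choice was selected on measured values, as the probe set brightest on average across the 6 arrays. GBP2, GBP3, GBP4, GBP5 and GBP6 met this rule among the 18404 genes measured. GBP1 did not, since its probe set also names GBP3 and the pseudogene GBP1P1. The family itself was picked with earlier results of these data known, so the tests below are no independent evidence that the family responds.

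Each of 3 groups of this line had 2 HuGene 1.0 ST arrays of total RNA, from cells plated in RPMI with 10% fetal calf serum 24 h before any treatment. In shp63 ON, doxycycline at 1 µg/mL switched on the p63 shRNA over 48 h. In the Nutlin-3 group the shRNA stayed off (shp63 OFF) and Nutlin-3, a small molecule that frees p53 from the ubiquitin ligase MDM2, was present at 10 µM during 12 h. Control was shp63 OFF under normal growth, with neither agent. The labels name no doxycycline-only cells, no other shRNA and no vehicle for Nutlin-3, so the shRNA, doxycycline and its longer duration cannot be told apart in shp63 ON. They do not say that replicates were separate cultures, so the p-values may measure technical spread alone. Fewer cells of a type and less RNA per cell cannot be told apart in such bulk RNA.

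GBPs belong to the dynamin superfamily and are best known as genes switched on by interferon gamma. The interferon receptor signals through JAK kinases and STAT factors, which bind GAS sites, and through interferon regulatory factors (IRFs), which bind the interferon-stimulated response element (ISRE). The proteins assemble on membranes and on the surface of bacteria inside the cell. There they help caspases of the inflammasome sense bacterial lipopolysaccharide.

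The human genes lie side by side on chromosome 1. Stretches around the start of 4 of them are shown because factors of the interferon pathway and of the p53 family bind in such regions of their target genes. All are from RefSeq on GRCh38.p14, and 4 of GBP1 to GBP6 had an entry. GBP2 and GBP5 had none, so they were not searched for motifs. In the first 3, capitals mark the ISRE core, which is GAAA, any 2 bases and GAAA again, here on the opposite strand and so read as TTTC, 2 bases and TTTC, with 10 bases on each side. In the fourth, capitals mark first a decamer of the p53 family motif and then a GAS site, TTCNNNGAA. The last, the bases just before GBP6, holds none of these motifs.
GBP1, chr1:89065316-89065345, minus strand: aacgaagtacTTTCAGTTTCatattactct
GBP3, chr1:89022845-89022874, minus strand: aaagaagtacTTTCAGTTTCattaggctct
GBP4, chr1:89198927-89198956, minus strand: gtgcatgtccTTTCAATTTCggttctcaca
GBP3, chr1:89022867-89023006, minus strand: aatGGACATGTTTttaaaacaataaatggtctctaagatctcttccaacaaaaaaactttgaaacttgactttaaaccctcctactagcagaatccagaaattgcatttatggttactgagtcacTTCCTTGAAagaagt
GBP6, chr1:89363959-89364058, plus strand: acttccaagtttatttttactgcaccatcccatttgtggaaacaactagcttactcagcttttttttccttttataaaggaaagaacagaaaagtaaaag

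The windows searched ran from 250 bases before to 50 bases after each start, on both strands, and the 3 motifs do not overlap in GBP3. The ISRE core was in the windows of GBP1, GBP3 and GBP4 and was found in 3.57% of 35116 RefSeq windows of this length. The GAS motif, in GBP3 alone of the 4, was in 7.66% of all windows, and the p53 family decamer, also in GBP3 alone of the 4, in 6.63%. The GBP1 and GBP3 windows share a run of 19 bases around the core and 25 of 30 positions. These matches describe letters and do not show that a factor binds.

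GBP2 rose 2.35-fold with the p63 shRNA on, the largest change among the 5 genes in that comparison. GBP6 also rose, at a level near the bottom of the array's range. GBP3 rose 1.22-fold with Nutlin-3, a call that no longer passed when any 1 array of the 2 groups was left out. GBP4 and GBP5 were dim in all groups and passed in no comparison. In shp63 ON, 2 of 5 members rose and none fell against control (limma, Benjamini-Hochberg adjusted p under 0.05), where 36.2% of all genes passed, 19.7% as higher and 16.5% as lower. With Nutlin-3, 1 of 5 rose and none fell, where 18.5% of all genes passed, 9.64% as higher and 8.89% as lower. Counts of 2 and 1 among 5 genes are too small to be set apart from these shares. The median log2 difference of the members was 0.08 in shp63 ON, beside 0.04 over all genes, and −0.10 with Nutlin-3, beside −0.0025.

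**Figure D1:**
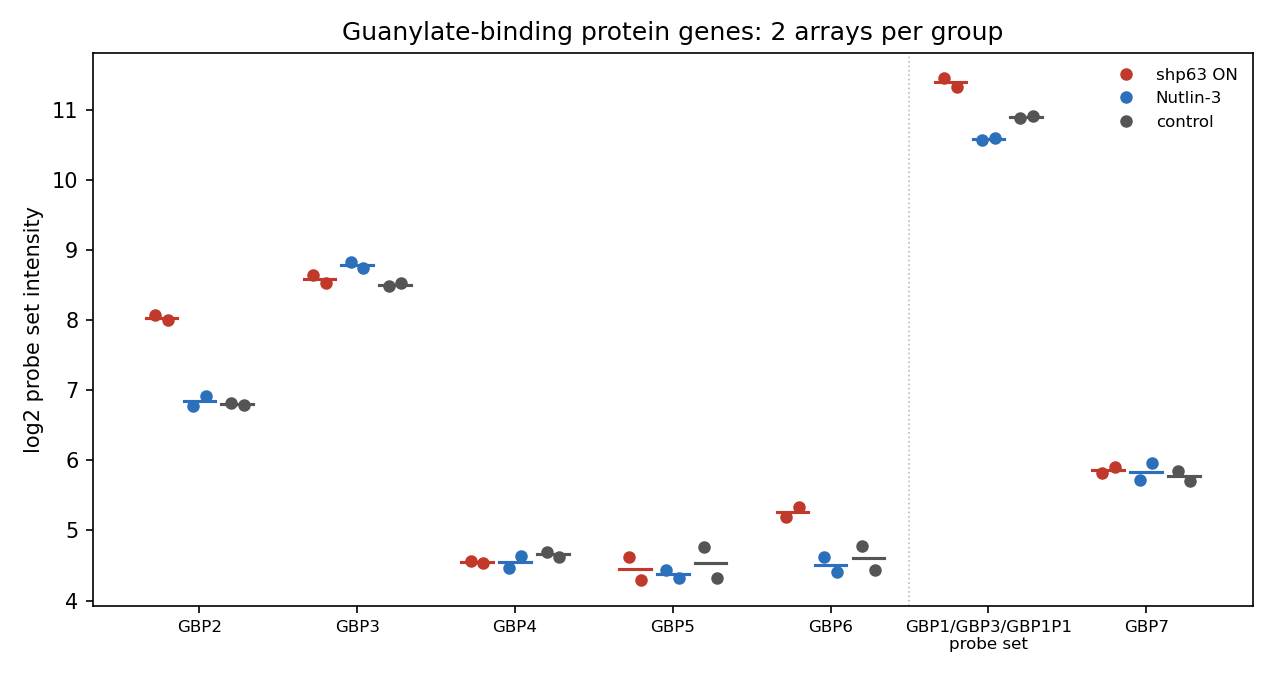
Log2 probe set intensity (vertical axis) of each GBP gene on each array, with points for single arrays and bars for group means, coloured by group. GBP2 and GBP6 lie higher on both shp63 ON arrays than on any other array. Right of the dotted line stand the probe set that names GBP1, GBP3 and GBP1P1, and GBP7.

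GBP2 is one of the prenylated GBPs and, in human cells, inhibits the protease furin. It read 8.07 and 8.01 (log2 intensity) on the shp63 ON arrays, 6.78 and 6.92 on the Nutlin-3 arrays and 6.82 and 6.80 on the control arrays. Both shp63 ON arrays lay above all others, and the Nutlin-3 arrays straddled the control arrays. The group means were 8.04 ± 0.04, 6.85 ± 0.10 and 6.81 ± 0.01 for shp63 ON, Nutlin-3 and control (SD, n = 2 each). Against control the rise in shp63 ON was 2.35-fold (log2 fold change 1.23, SE 0.07, limma adjusted p = 3.19e-05), and only 1.08% of genes changed more in either direction. Against Nutlin-3 it was 2.28-fold (log2 difference 1.19, SE 0.07, limma adjusted p = 2.47e-05). With Nutlin-3 the log2 difference from control was 0.05, with a 95% confidence interval of −0.12 to 0.21. Over 16 alternatives the log2 fold change in shp63 ON against control stayed between 1.15 and 1.28, and the adjusted p between 1.49e-06 and 0.0147.

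A second, dimmer GBP2 probe set entered none of these values but the 1.15, which comes from averaging all probe sets of a gene. It read 6.87 and 6.96 in shp63 ON, 5.26 and 5.61 with Nutlin-3 and 5.97 and 5.72 in control. It too was highest on both shp63 ON arrays, with a log2 fold change of 1.07 against control (SE 0.14, limma adjusted p = 0.0078 over all 32321 probe sets). With Nutlin-3 its log2 difference from control was −0.41 (SE 0.14, limma adjusted p = 0.158), beside 0.05 in the brighter one.

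GBP6 is less well studied than its relatives, and its transcript is known from squamous epithelium of the mouth and oesophagus. It read 5.19 and 5.34 in shp63 ON, 4.62 and 4.40 with Nutlin-3 and 4.78 and 4.44 in control. The shp63 ON arrays lay above the rest, while Nutlin-3 and control overlapped. The rise in intensity against control was 1.58-fold (log2 fold change 0.66, SE 0.13, 95% confidence interval 0.36 to 0.95, limma adjusted p = 0.0066). Against Nutlin-3 it was 1.68-fold (log2 difference 0.75, SE 0.13, limma adjusted p = 0.00199). Both calls were lost in an analysis of variance without moderation, the form of test the design text names (adjusted p = 0.105 and 0.0616). They held in the other 15 alternatives, with a limma adjusted p of 0.0280 and 0.0109 over all probe sets. Over the 16 alternatives the log2 fold change ran from 0.49 to 0.83 against control and from 0.63 to 0.86 against Nutlin-3. The gene was dim, at percentile 8.6 of the levels of all genes. Its control arrays lay in the range of GBP4 and GBP5, where a gene that is off and one expressed weakly cannot be told apart, so the folds of intensity set no upper limit for the ratio of RNA. Among the 1974 genes of mean log2 intensity 4 to 5, 4.86% rose in shp63 ON, and the median log2 fold change was 0.04.

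GBP3 is known from human lung epithelial cells, where a splice form restrains influenza virus. It read 8.65 and 8.53 in shp63 ON, 8.83 and 8.75 with Nutlin-3 and 8.49 and 8.53 in control. The Nutlin-3 arrays were the highest, and the lower shp63 ON array was within 0.01 of the higher control array. The rise with Nutlin-3 was 1.22-fold (log2 fold change 0.28, SE 0.07, limma adjusted p of 0.0298). The call was lost on leaving out any 1 array of either group (control replicate 1, limma adjusted p = 0.157; control replicate 2, 0.102; nutlin replicate 1, 0.113; nutlin replicate 2, 0.0568), and it was also lost in the analysis of variance without moderation and over all probe sets. In shp63 ON against control the log2 difference was 0.08 (95% confidence interval −0.08 to 0.25). GBP3 was 0.20 lower in shp63 ON than with Nutlin-3 (log2 difference −0.20, SE 0.07, limma adjusted p = 0.0450), a call lost in 11 of 17 alternatives.

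GBP4 and GBP5 sat at percentiles 5.8 and 4.1 of the levels of all genes. GBP5, which in human cells shares the furin inhibition of GBP2 and promotes the NLRP3 inflammasome, read 4.62 and 4.29 in shp63 ON, 4.43 and 4.32 with Nutlin-3 and 4.77 and 4.31 in control. The groups overlapped, and the spread within control was wider than any difference of group means. GBP5 differed from control by −0.09 in shp63 ON (log2 scale, 95% confidence interval −0.46 to 0.28) and by −0.16 with Nutlin-3 (−0.53 to 0.21). GBP4, which helps coat cytosolic bacteria, read 4.57 and 4.54 in shp63 ON, 4.46 and 4.63 with Nutlin-3 and 4.70 and 4.62 in control. It differed from control by −0.11 in shp63 ON (95% confidence interval −0.28 to 0.07) and by −0.12 with Nutlin-3 (−0.29 to 0.06). At such levels the arrays cannot separate a gene that is off from one expressed weakly.

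**Figure D2:**
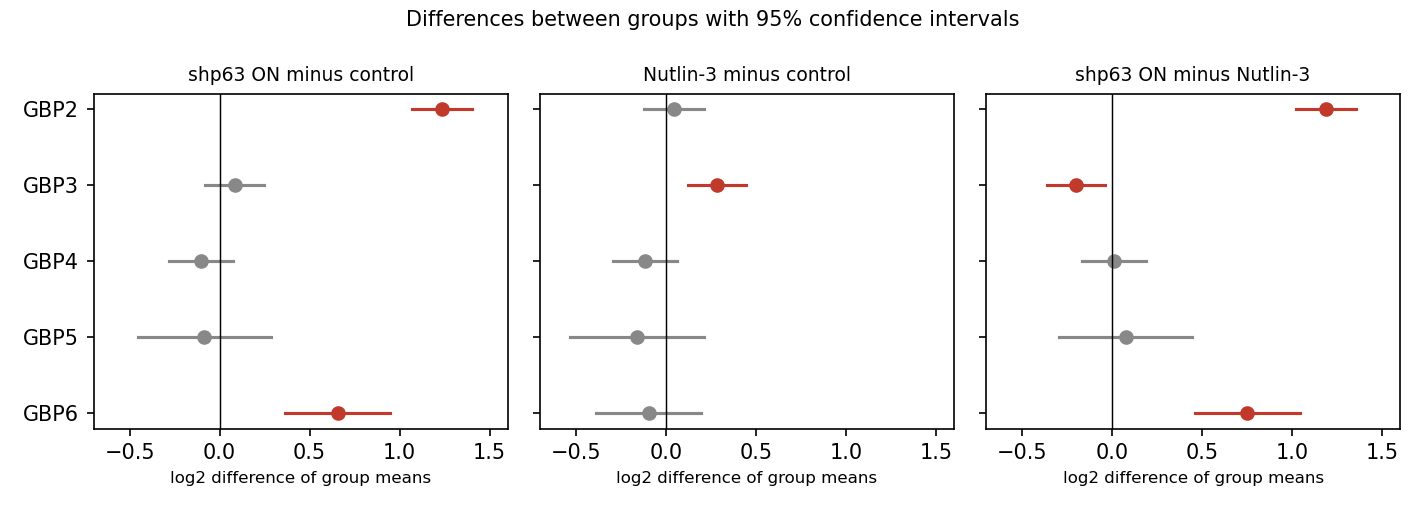
Log2 difference of group means (horizontal axis) for each member, with 95% confidence intervals from limma, for the 3 comparisons. Red marks a limma adjusted p under 0.05. GBP2 and GBP6 lie right of 0 in both comparisons of shp63 ON, and GBP3 is the one member in red with Nutlin-3 against control.

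Counted by arrays that do not overlap, 4 of 5 members separated shp63 ON from control, beside 71.7% of all genes, 1 of 5 separated Nutlin-3 from control, beside 60.5%, and 3 of 5 separated shp63 ON from Nutlin-3, beside 76.7%. Between shp63 ON and Nutlin-3, 2 of 5 members were called higher and 1 lower, where 51.5% of all genes were called, 27.5% higher and 24.0% lower. The comparisons share arrays and are not independent of each other. At this precision Nutlin-3 and control could not be ordered for GBP2, GBP4, GBP5 and GBP6, and shp63 ON and control could not be ordered for GBP3, GBP4 and GBP5.

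The probe set that names GBP1, GBP3 and GBP1P1 lies outside the rule, and its signal cannot be given to one of the 3 genes. It was the brightest that names a GBP gene, at 11.46 and 11.33 in shp63 ON, 10.58 and 10.60 with Nutlin-3 and 10.88 and 10.91 in control. The 3 groups did not overlap, with shp63 ON highest and Nutlin-3 lowest. Over all 32321 probe sets, the log2 fold change against control was 0.50 in shp63 ON (SE 0.07, limma adjusted p = 0.0092), and with Nutlin-3 it was −0.31 (SE 0.07, limma adjusted p = 0.0607). Against Nutlin-3, shp63 ON was 0.81 higher (log2 difference, SE 0.07, limma adjusted p = 0.00134). Its order of groups differs from that of the GBP3 probe set, in which Nutlin-3 was highest. GBP genes are close in sequence, and probes of one may bind transcripts of another. GBP7, which is not among the genes GBP1 to GBP6, read 5.82 and 5.91 in shp63 ON, 5.71 and 5.97 with Nutlin-3 and 5.85 and 5.70 in control, with overlapping groups.

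GBP2 and GBP6, which rose in shp63 ON, are separated on the chromosome by GBP7, GBP4 and GBP5, which did not pass. In chromosome order, the flanking genes LMO4, PKN2, GTF2B, KYAT3 and RBMXL1 come before GBP3, GBP1, GBP2, GBP7, GBP4, GBP5 and GBP6, and LRRC8B, LRRC8C, LRRC8D and ZNF326 after them. Of 9 neighbours with a value, BARHL2 further along included, 2 rose and 3 fell in shp63 ON, beside 19.7% and 16.5% of all genes, and 1 rose and 2 fell with Nutlin-3, beside 9.64% and 8.89%. Without 1 array these counts were 0 to 1 and 1 to 3 in shp63 ON, and 0 to 1 each way with Nutlin-3. LRRC8C, a subunit of volume-regulated anion channels, fell the most in shp63 ON (log2 fold change −0.98, SE 0.06, limma adjusted p = 5.7e-05). LRRC8B, of the same channel family and next to GBP6, fell as well (−0.26, SE 0.07), a call lost in 5 of 17 alternatives. ZNF326 fell by 0.34 (SE 0.07, lost in 3 of 17), while KYAT3, a kynurenine aminotransferase, rose by 0.26 (SE 0.09), a call lost in 8 of 17 alternatives. LMO4 (0.08), PKN2 (−0.06), GTF2B (0.11) and LRRC8D (0.07) did not pass in shp63 ON. With Nutlin-3, LMO4 fell (−0.41, SE 0.07), a call lost in 2 of 16 alternatives, and GTF2B, a general transcription factor, rose (0.38, SE 0.08), a call lost in 5 of 17. LRRC8B passed as lower with Nutlin-3 (−0.23, SE 0.07) at a limma adjusted p of 0.04998, a call lost in 14 of 17 alternatives. BARHL2 rose in shp63 ON (0.35), a call lost in 10 of 17 alternatives.

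**Figure D3:**
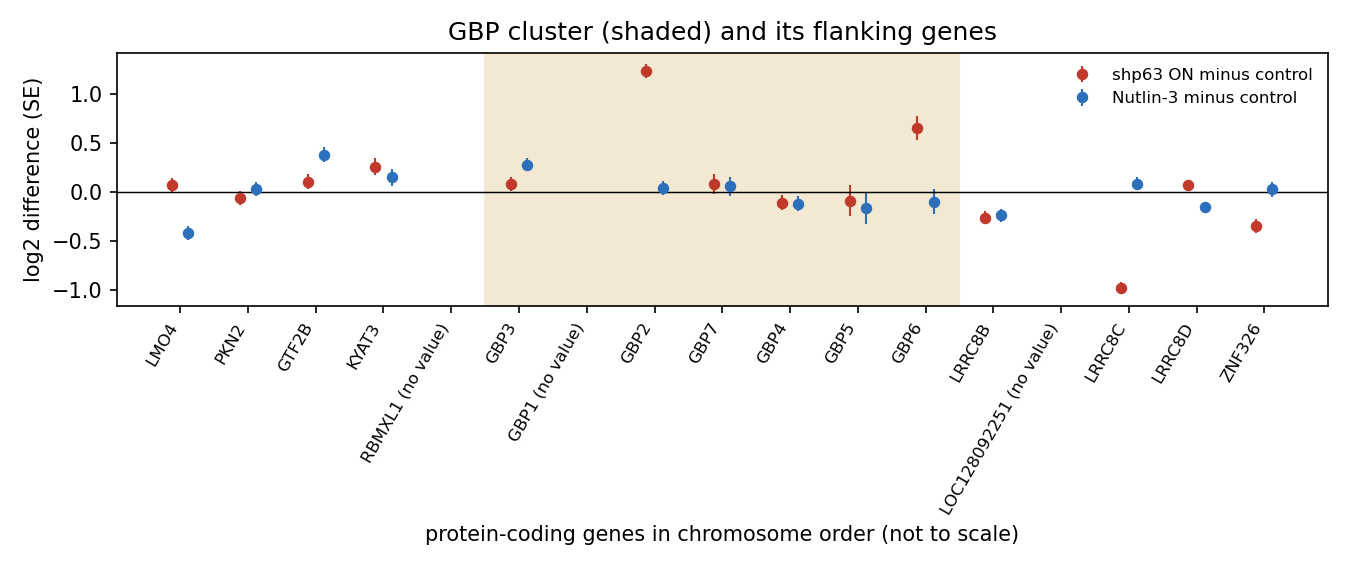
Log2 difference from control (vertical axis, bars are SE) for protein-coding genes in chromosome order, evenly spaced and not to scale, with the GBP cluster shaded. GBP2 and GBP6 lie above their neighbours in shp63 ON, whose differences run from −0.98 to 0.26 in the flanks.

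Of 11 receptor, kinase and STAT genes upstream of the GBPs in interferon signalling, 1 rose and 4 fell in shp63 ON, beside 19.7% and 16.5% of all genes (median log2 difference −0.07). Without 1 array the rises were 0 to 1 and the falls 1 to 4, and cyclic loess normalization left 2 falls. IFNAR2, a chain of the type I interferon receptor, fell by 0.52 on the log2 scale (SE 0.10, limma adjusted p = 0.0057, lost in the analysis of variance without moderation), and IFNAR1, its partner, fell by 0.26 (SE 0.08), a call lost in 7 of 17 alternatives. STAT5B fell by 0.28 (SE 0.07), lost in 4 of 17. With Nutlin-3, 2 of these genes rose and none fell, beside 9.64% and 8.89% of all genes, and without 1 array 0 to 2 rose. They were STAT6 (log2 fold change 0.39, SE 0.07, lost in 3 of 17 alternatives) and IFNAR1 (0.29, SE 0.08, lost in 8 of 17). Further genes of this list are named after their values were seen. In shp63 ON, IFNGR1, a chain of the interferon gamma receptor, fell by 0.23 (SE 0.06, limma adjusted p = 0.0215). The kinase gene JAK1 rose by 0.22 (SE 0.06, limma adjusted p = 0.0290). IFNGR2 (−0.02) and JAK2 (−0.04) did not pass there. The calls of IFNGR1 and JAK1 were not followed over the alternatives. The interferon genes themselves are named after their values were seen. IFNL1, a type III interferon, read 7.11 and 7.10 in shp63 ON, 6.68 and 6.64 with Nutlin-3 and 6.75 and 6.60 in control. It was highest on both shp63 ON arrays (log2 fold change against control 0.43, SE 0.07, limma adjusted p = 0.0036). IFNG and IFNB1 were dim in all groups and did not pass, IFNG at 4.51 and 4.32 in shp63 ON, 4.47 and 4.35 with Nutlin-3 and 4.48 and 4.41 in control.

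A list of 12 genes held interferon regulatory factors, NLRC5 and CIITA of the class II transactivator family, and the factors BATF2 and ETV7 of neither family. Of the 12, 5 rose and none fell in shp63 ON (median log2 difference 0.23), beside 19.7% and 16.5% of all genes. Among all genes of mean log2 intensity 6 to 7 and 7 to 8, where most of the 12 lie, 34.7% and 24.6% rose. The rises numbered 3 to 5 without 1 array, 3 with cyclic loess and as few as 2 in other alternatives. NLRC5, the transactivator of class I antigen presentation, read 7.69 and 7.76 in shp63 ON, 6.93 and 6.96 with Nutlin-3 and 7.05 and 7.10 in control. Like GBP2, it was highest on both shp63 ON arrays (log2 fold change against control 0.65, SE 0.06, limma adjusted p = 0.00038). IRF7, a driver of type I interferon, rose by 0.50 (SE 0.06, limma adjusted p = 0.00124). BATF2, an interferon-induced factor, rose by 0.47 (SE 0.13), a call lost in 6 of 16 alternatives. IRF1, a main activator of GBP genes and named after its values were seen, read 7.86 and 7.63 in shp63 ON, 8.08 and 7.82 with Nutlin-3 and 7.50 and 7.59 in control. With Nutlin-3 it rose by 0.40 on the log2 scale (SE 0.11, limma adjusted p = 0.0443), a call lost in 5 of 17 alternatives, and did not pass in shp63 ON (0.20, SE 0.11, limma adjusted p = 0.203). With Nutlin-3, 3 of the 12 rose and 1 fell, beside 9.64% and 8.89% of all genes, but on leaving out any 1 array only 0 to 1 rose and none fell. Beside IRF1, the rises were ETV7 (0.49, SE 0.13), a call lost in 8 of 16 alternatives, and IRF2 (0.26), lost in 12 of 17, and the fall was IRF8 (−0.28), lost in 11 of 16.

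Among 27 interferon gamma response effectors, 7 rose and 1 fell in shp63 ON, beside 19.7% and 16.5% of all genes (median log2 difference 0.16, against 0.04 over all genes), and 1 rose with Nutlin-3, beside 9.64%. The background in shp63 ON varied with level. Of all genes, 4.86% rose at mean log2 intensity 4 to 5, 34.7% at 6 to 7 and 17.0% at 8 to 9. The median log2 differences there were 0.04, 0.17 and −0.06. The effectors spread over these levels and beyond, so their median is not set apart from genes of like level. The 7 rises became 5 to 7 without 1 array and as few as 3 in other alternatives. CXCL11, a chemokine for T cells, read 6.55 and 6.14 in shp63 ON, 5.38 and 5.26 with Nutlin-3 and 5.36 and 5.35 in control (log2 fold change against control 0.99, SE 0.12, limma adjusted p = 0.00116). Its call was lost in the analysis of variance without moderation. The ubiquitin-like UBD rose by 0.93 (SE 0.28), a call lost in 4 of 17 alternatives, PLAAT4 by 0.83 (SE 0.13, lost in the analysis of variance without moderation), and SECTM1, a secreted T cell ligand, by 0.70 (SE 0.07, limma adjusted p = 0.00053). CXCL9, CXCL10 and IDO1, often the most responsive genes to interferon gamma and named after their values were seen, did not pass in shp63 ON, with log2 differences of 0.06, −0.02 and 0.01. They were dim, at percentiles 3.5, 1.7 and 7.2 of the levels of all genes. At such levels a gene that is off and one expressed weakly cannot be told apart, so these differences do not show whether the genes responded. Among 13 brakes of the pathway, 2 rose and 2 fell in shp63 ON (2 and 0 to 3 without 1 array), with rises of SOCS2 (0.61, SE 0.06) and SOCS1 (0.34, SE 0.06) and a fall of the phosphatase gene PTPN2 (−0.34, SE 0.08, lost in 4 of 17 alternatives). Over all genes, 19.7% rose and 16.5% fell in shp63 ON. With Nutlin-3, 1 of the 13 rose, PIAS3 (0.34, SE 0.09), and 1 fell, SOCS2 (−0.28, SE 0.06), each lost in 5 of 17 alternatives. Of all genes, 9.64% rose and 8.89% fell with Nutlin-3.

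**Figure D4:**
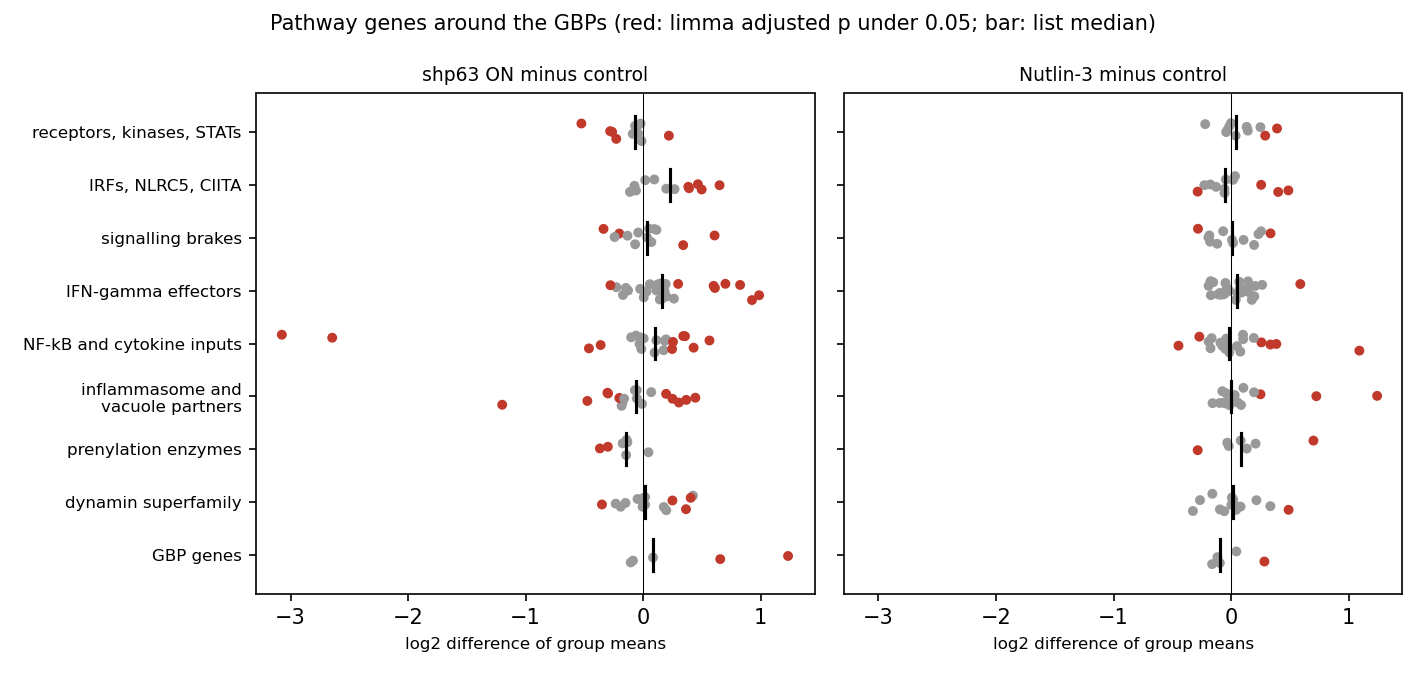
Log2 difference from control (horizontal axis) for single genes of the pathway lists and the GBP genes, with the list median as a bar and red for a limma adjusted p under 0.05. In shp63 ON the list of IRFs, NLRC5 and CIITA, which also holds BATF2 and ETV7, has 5 rises and no fall. The cytokine list has IL1A and IL1B far to the left, and of the GBP genes 2 are red.

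Of 21 NF-kB and cytokine genes, inflammatory inputs that can also raise GBP genes, 6 rose and 4 fell in shp63 ON, beside 19.7% and 16.5% of all genes, and 4 rose and 2 fell with Nutlin-3, beside 9.64% and 8.89%. Without 1 array, 3 to 6 rose and 4 fell in shp63 ON, and 1 to 3 rose and 0 to 2 fell with Nutlin-3. IL1B read 5.82 and 5.83 in shp63 ON, 10.04 and 9.94 with Nutlin-3 and 8.76 and 9.04 in control. The 2 perturbations thus lay on opposite sides of control for this gene, with log2 fold changes of −3.07 (SE 0.10) in shp63 ON and 1.09 (SE 0.10) with Nutlin-3. IL1A fell in shp63 ON (−2.65, SE 0.08), as did TNFAIP3, a brake of NF-kB (−0.46, SE 0.06), while TNF rose (0.56, SE 0.12, a call lost in 3 of 16 alternatives).

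Among the genes of proteins with which GBPs act, CASP1, the inflammasome protease, changed most. It read 5.45 and 5.60 in shp63 ON, 8.01 and 7.93 with Nutlin-3 and 6.84 and 6.61 in control (log2 fold changes against control −1.20 and 1.24, SE 0.10 each, limma adjusted p = 0.000145 and 0.000139). NLRP3, an inflammasome sensor, fell in shp63 ON (−0.47, SE 0.09, lost in 2 of 16 alternatives) and rose with Nutlin-3 (0.73, SE 0.09, lost in 1 of 16). Of 18 such partners, 5 rose and 5 fell in shp63 ON, beside 19.7% and 16.5% of all genes, and without 1 array 2 to 5 rose and 1 to 5 fell. With Nutlin-3, 3 rose, beside 9.64%. The calls in shp63 ON include rises of GSDMD, the pore former of pyroptosis (0.37, SE 0.06), and UBE2L6, the conjugating enzyme for ISG15 (0.44, SE 0.09, lost in 2 of 17 alternatives). Prenylation anchors GBP1, GBP2 and GBP5 to membranes. The list of prenylation enzymes also holds the Rab geranylgeranyl transferase, which acts on Rab proteins. Of 7 prenylation and processing genes, none rose and 2 fell in shp63 ON, beside 19.7% and 16.5% of all genes. The falls were the methyltransferase ICMT (−0.30, SE 0.07, lost in 4 of 17 alternatives) and RABGGTB (−0.37, SE 0.07), a subunit of the Rab geranylgeranyl transferase. With Nutlin-3, 1 rose and 1 fell, beside 9.64% and 8.89% of all genes. The rise was RABGGTA (0.70, SE 0.07), the other subunit of that enzyme, and the fall was ICMT (−0.28, SE 0.07), a call lost in 9 of 17 alternatives. FNTA and PGGT1B, of the same list and named after their values were seen, did not pass against control. Their log2 differences were −0.13 and −0.17 in shp63 ON and 0.13 and 0.08 with Nutlin-3. Among 15 other dynamin superfamily GTPases, 3 rose and 1 fell in shp63 ON (1 to 3 and 1 to 2 without 1 array). Over all genes, 19.7% rose and 16.5% fell. The antiviral MX2 rose by 0.41 (SE 0.13), a call lost in 8 of 16 alternatives, the membrane remodelling EHD1 rose by 0.37 (SE 0.07) and EHD2 fell by 0.35 (SE 0.07). With Nutlin-3, 1 rose, EHD4 (0.49, SE 0.07), beside 9.64% of all genes.

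The profile of GBP2 over the 6 arrays was closest, by Euclidean distance between profiles centred on their own mean, to those of IGFBP3 (distance 0.11), SLC2A12 (0.15), CAPN13 (0.18), ADCY9 (0.21) and ST14 (0.24) among 18403 other genes. For scale, a flat profile lay at 1.40. GBP6 was the member nearest to GBP2, at rank 243 (distance 0.71), and GBP4, GBP5 and GBP3 ranked 10977, 11266 and 11644. The profile of GBP6 was closest to C11orf86 (0.11), MGMT (0.18), B3GALT4 (0.20), ADAM9 (0.20) and MEIS2 (0.20), with GBP2 at rank 5269. These orders describe 3 group patterns on 6 arrays and carry no test.

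Markers of the labelled cell type and of other cell types also moved, and those named here were picked after their values were seen. Over all genes, 19.7% rose and 16.5% fell in shp63 ON, and 9.64% rose with Nutlin-3. Of 7 squamous and basal markers, 2 rose and 4 fell in shp63 ON and 4 rose with Nutlin-3, and their mean was 9.18 to 9.22 in shp63 ON, 9.96 to 10.01 with Nutlin-3 and 9.36 to 9.42 in control. KRT5, a basal keratin, was bright on all arrays, between 11.87 and 12.39, and fell in shp63 ON (log2 fold change −0.37). The desmosomal cadherins DSG3 (−0.73) and DSC3 (−0.57) and the laminin chain LAMB3 (−0.36) fell there too, while KRT15 (0.32) and PKP1 (0.36) rose. The calls of KRT5 and LAMB3 were each lost in 2 of 17 alternatives and that of KRT15 in 1 of 16.

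Beside the rises of GBP2 and GBP6, the mean of 11 leukocyte markers was 6.48 to 6.49 in shp63 ON, 6.19 to 6.27 with Nutlin-3 and 6.17 to 6.23 in control. In shp63 ON 5 of them rose, among them CD68 (log2 fold change 0.75) and CD14 (0.62). For this list and the endothelial, mesothelial and fibroblast lists below, the shares over all genes were 19.7% higher and 16.5% lower. Among all genes of mean log2 intensity 5 to 6 and 6 to 7, 20.4% and 34.7% rose. PTPRC, the defining leukocyte gene, read between 4.24 and 4.48 on all arrays, at percentile 2.9 of the levels of all genes, and did not pass (−0.12, SE 0.08). The mean of 9 endothelial markers was 5.995 to 6.04 in shp63 ON, 5.67 to 5.70 with Nutlin-3 and 5.82 to 5.88 in control. Of these, 3 rose and none fell in shp63 ON, namely CDH5 (0.57, SE 0.08, limma adjusted p = 0.00151), ESAM (0.35, lost in 3 of 16 alternatives) and VWF (0.31, lost in 8 of 16), while PECAM1 did not pass (−0.05). Of 7 mesothelial markers 2 rose and 1 fell in shp63 ON (0 to 3 rises without 1 array), and their mean was 6.97 to 7.07 in shp63 ON, 6.96 to 7.01 with Nutlin-3 and 6.84 to 6.93 in control. Of 9 fibroblast markers 3 rose and 1 fell in shp63 ON, but 0 to 2 rose without 1 array and none did with cyclic loess, and their mean was 6.16 to 6.17 in shp63 ON, 6.04 to 6.06 with Nutlin-3 and 6.08 to 6.10 in control. With Nutlin-3, 2 leukocyte markers rose and none fell, LAPTM5 (0.89) and CD68 (0.29, lost in 4 of 17 alternatives). Of the endothelial markers 1 rose, TEK (0.30), and 2 fell, CDH5 (−0.47, lost in 2 of 17) and ESAM (−0.37, lost in 3 of 16). One mesothelial marker rose, BNC1 (0.68), and no fibroblast marker passed. Over all genes, 9.64% rose and 8.89% fell with Nutlin-3. The part of these shifts in the GBP values was not tested.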

How the data were processed

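The values are log2 intensities of probe sets, deposited after normalization by the authors. Their scale is read from the table itself, and Partek is named per the submitters' processing notes, with its version not given. How background was corrected, arrays normalized and probes summarised is not given in the sources used here. Of 32321 probe sets, 19158 name 1 gene, 1388 several and 11775 none in the platform annotation, which gave 18404 genes. All genes and all 6 arrays entered one fit of group means in limma 3.58.1 (R 4.3.3, lmFit, eBayes), after the one-way model of the design text. Benjamini-Hochberg adjustment of each p-value ran over all genes, with calls at an adjusted p under 0.05. No dim gene was removed. The number of arrays limits the precision. With 2 a group, an exact permutation test cannot go below 0.333. The fit was tested on simulated data.

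The members and gene lists were chosen with earlier results of these data known. Named were all members, all measured neighbours on the fixed list, up to 4 called genes per list by size of change, and the 5 genes nearest in profile to the 2 most variable members; further genes are said to be named after their values were seen. Of 196 listed genes, 176 had a value. Alternatives were other normalizations, variance models, filters and probe set rules, the replicate block and leaving out each array.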

Additional observations from a re-analysis of the deposited data

How the results depend on the processing

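The rise of GBP2 in shp63 ON passed in all 16 alternatives that tested it. GBP3 kept its direction in each but often missed the threshold. The count of members called higher with Nutlin-3, 1 in the reported fit, was 0 in the one-way ANOVA without moderation and over all probe sets, and 0 to 1 when 1 array was left out. The members called higher in shp63 ON, 2 against control and 2 against Nutlin-3, became 1 in each by the ANOVA. Among genes above the median level both were 0, because that filter left only GBP3 to test. The 1 member called lower in shp63 ON than with Nutlin-3 became 0 with quantile normalization, cyclic loess, the ANOVA, only the 2 groups compared, all probe sets and the replicate block, and was 0 to 1 without 1 array. All genes called with Nutlin-3 numbered 3410, against 1236 by the ANOVA, 2254 over all probe sets and 1405 to 2991 without 1 array. In shp63 ON against control they numbered 6670, against 3003 by the ANOVA and 3454 to 6960 without 1 array. Against Nutlin-3 they numbered 9481, against 6089 by the ANOVA and 5918 above the median level. That filter tested fewer genes, so its lower count does not mean a lower share of genes called. Over the alternatives, 70 calls against control of genes outside the family were followed. Of these, 29 held in every alternative that tested them and 41 were lost in at least 1, and the cause was not tested. Those that held were NLRC5, IRF7, IFNL1, SECTM1, SOCS1, SOCS2, IL1A, IL1B, TNFAIP3, CASP1, GSDMD, EHD1, EHD2, RABGGTB, LRRC8C, DSC3, DSG3, PKP1, CD14, CD68 and CDH5 in shp63 ON and CASP1, IL1B, EHD4, RABGGTA, DSC3, DSG3, KRT15 and LAMB3 with Nutlin-3. The labels give same-numbered arrays a shared number and nothing more. The correlations of their deviations from group means were −0.06, −0.02 and 0.11. Whether these arrays were paired is not known, so the replicate block cannot be read as a known pairing. Leaving out an array also leaves fewer arrays and a lone array in its group, assumed to vary like the others. Signal near the floor limits GBP4, GBP5 and GBP6.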
